A study of Mus musculus with 45 samples.

Results

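Kallikrein-related peptidases are secreted serine proteases whose genes lie side by side in a single cluster. They are made as inactive precursors, and are activated by cleavage by other serine proteases or by each other. In skin they shed the outermost cells by cutting the proteins that join them, in brain they act on myelin and on synaptic adhesion, and on other cells they can cut protease-activated receptors, and secreted inhibitors hold them in check. The 8 genes described here, Klk6, Klk7, Klk8, Klk9, Klk10, Klk11, Klk13 and Klk14, were 8 of the 54838 mouse genes in the count table, and they were chosen by the normalised read counts of Klk6 and Klk8, which differed strongly between cell lines of different parental origin. The difference between origins is therefore given as a description, without a test. Of the 8 genes, 6 had at least 1 read, and 5 passed the filter on low counts in the comparisons of lines.

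RNA was sequenced from 15 PyMT+ mammary tumour cell lines, 3 technical repeats of each, which gave 45 libraries. PyMT is the polyomavirus middle T antigen, the oncogene which drove the original tumours from the mammary epithelium. There were 2 parental lines from primary mammary gland tumours, YEJG and YEJH, and 13 lines derived from them. YEJG gave 1 line from a fat pad tumour (YEJG-FP) and 2 lines from lung (YEJG-M1 and YEJG-M2). YEJH gave 5 fat-pad lines (YEJH-FP1 to YEJH-FP5) and 5 lung lines (YEJH-M1 to YEJH-M5). The labels call the lung lines whole lung, except YEJH-M3, which they call lung metastases, and the study describes lung lines as grown from micrometastases. The cells were grown on plastic without treatment, and the labels give no sex, age or further genotype. Each origin rests on 1 parental line, so that origin and the particular parental line cannot be told apart, and the technical repeats measure only the spread within a line.

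Reads counted on genes numbered 9723860 in the shallowest library and 16943900 in the deepest. The library names fall into a set A of 22 libraries and a set B of 23, and both sets hold libraries of fat-pad and of lung lines. Library set A against B within lines gave 2948 calls among 15165 genes (19.4%), 8.57% higher and 10.9% lower in set B, but none among the 5 members tested, whose log2 differences lay between 0.01 and 0.11 with adjusted p-values of 0.539 to 0.892 (edgeR's quasi-likelihood test, Benjamini-Hochberg adjustment). The library of YEJG-M1 repeat 1 is named after another line in the library name, and was assigned here from the title of the sample.

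The 8 genes lie in one orientation on mouse chromosome 7 (GRCm39, plus strand). From the lower coordinate they stand in the order Klk14 (43339842 to 43344960), Klk13 (43361812 to 43377295), Klk11 (43424015 to 43428690), Klk10 (43430448 to 43436793), Klk9 (43441315 to 43446181), Klk8 (43446969 to 43453250), Klk7 (43460718 to 43465809) and Klk6 (43473869 to 43481516). The non-coding gene 2310002F09Rik runs on the other strand across 43344633 to 43447425, and its exons share 1010 bases with those of Klk9, 457 with Klk8, 287 with Klk14 and 202 with Klk11. For these lines the study names a TruSeq RNA kit that it does not call stranded, unlike the kit it names for tissue and fibroblasts. Whether reads were counted by strand is not stated, and without strand the reads in these stretches cannot be told apart. Klk6, Klk7, Klk10 and Klk13 share no exon bases with it. No 50-base stretch of a member transcript was found in another member, and none of Klk6, Klk7, Klk10 or Klk13 was found in any other annotated gene, so that reads of that length tell the members apart by sequence.

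The promoters of the 3 abundantly expressed members are shown because these genes carried most of the reads of the members. Each sequence is the 250 bases before a RefSeq transcription start (taken from the RefSeq promoter table of GRCm38.p6 and located on GRCm39 by exact match, plus strand), 5′ to 3′. Klk6 has 2 starts in that table. Capitals mark TTAAAA, the only searched motif that these 4 sequences hold.
Klk6, first start, chr7:43473718-43473967: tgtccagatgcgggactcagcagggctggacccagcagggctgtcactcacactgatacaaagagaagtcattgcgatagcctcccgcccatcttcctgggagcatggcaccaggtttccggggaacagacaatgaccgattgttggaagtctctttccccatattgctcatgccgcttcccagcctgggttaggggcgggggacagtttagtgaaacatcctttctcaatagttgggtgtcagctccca
Klk6, second start, chr7:43474624-43474873: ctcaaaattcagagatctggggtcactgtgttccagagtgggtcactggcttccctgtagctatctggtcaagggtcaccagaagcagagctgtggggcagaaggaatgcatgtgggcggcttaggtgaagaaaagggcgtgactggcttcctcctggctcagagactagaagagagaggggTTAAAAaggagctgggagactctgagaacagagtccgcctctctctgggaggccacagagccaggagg
Klk8, chr7:43446751-43447000: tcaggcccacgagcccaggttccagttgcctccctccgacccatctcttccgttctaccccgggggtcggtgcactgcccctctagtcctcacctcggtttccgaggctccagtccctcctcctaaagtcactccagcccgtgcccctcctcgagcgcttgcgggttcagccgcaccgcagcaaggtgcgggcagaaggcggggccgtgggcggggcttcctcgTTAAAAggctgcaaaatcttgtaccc
Klk10, chr7:43430228-43430477: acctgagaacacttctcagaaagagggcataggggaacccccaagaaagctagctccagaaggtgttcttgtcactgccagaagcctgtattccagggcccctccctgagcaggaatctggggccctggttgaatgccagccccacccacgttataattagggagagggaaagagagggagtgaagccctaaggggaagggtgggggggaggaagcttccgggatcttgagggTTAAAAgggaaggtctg

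At first 3 motifs were searched on both strands of these windows, TGANTCA (the AP-1 site), TATAAA (the TATA box) and AACCNGTT (a grainyhead site), where N is any base. None of the 10 windows of the 8 members held any of the 3, which occur in 6.75%, 12.4% and 1.79% of the 32851 promoter windows of the table. TTAAAA was added after the sequences had been read. It starts 26 bases before the start of Klk8, 17 bases before that of Klk10, 68 bases before the second start of Klk6 and 233 bases before 1 of the starts of Klk11, and occurs in 17.7% of all windows. The upstream GC content was 65.2% for Klk8, 56% for Klk10, and 55.2% and 55.6% for the 2 starts of Klk6.

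Klk6, Klk8 and Klk10 were strongly expressed in the parental lines of both origins, stayed high in the 10 YEJH-derived lines, and were lower in the 3 YEJG-derived lines. Klk6 encodes neurosin, a trypsin-like kallikrein known for cleaving myelin basic protein and amyloid precursor protein. Its normalised read count, the count scaled to the mean library size with TMM factors, was 15311 ± 2024 in parental YEJG (SD of 3 technical repeats) and 11076 ± 1860 in parental YEJH. In the YEJG-derived lines it was 444 ± 73.1 in YEJG-FP, 517 ± 37.5 in YEJG-M1 and 339.8 ± 31.3 in YEJG-M2. Every YEJG-derived line lay below every YEJH-derived line, the difference by which Klk6 was chosen. The parental line YEJG was above all 14 others. Of the 15815 genes tested between the 2 groups of derived lines, 21.6% were called lower in YEJG-derived lines. The share of genes without overlap between these groups was not counted.

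The YEJH fat-pad lines gave a Klk6 normalised read count of 7304 in FP1, 5801 in FP2, 7092 in FP3, 6979 in FP4 and 4835 in FP5. The YEJH lung lines gave 4682 in M1, 3447 in M2, 5905 in M3, 6152 in M4 and 3939.8 in M5. Over lines, the mean Klk6 level was 5614 ± 1345 (SD, n = 10) in YEJH-derived and 434 ± 89.0 (SD, n = 3) in YEJG-derived lines, 12.9 times lower in the latter. The nearest lines of the 2 groups, YEJH-M2 and YEJG-M1, were 6.67-fold apart. The levels of Klk6 in the parental lines differed the other way, and parental YEJG exceeded the mean of the lines derived from it 35.3-fold, whereas parental YEJH exceeded its derived lines 1.97-fold.

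Klk8, or neuropsin, is a trypsin-like kallikrein of skin and hippocampus that cuts synaptic adhesion proteins. It reached a normalised read count of 5741 ± 821 in parental YEJG and 10473 ± 2406 in parental YEJH (SD of 3 technical repeats). The YEJG-derived lines gave lower values, 1652 ± 225 in YEJG-FP, 885 ± 56.2 in YEJG-M1 and 872 ± 90.4 in YEJG-M2. The fat-pad line of this origin was above both lung lines, which differed by less than their technical spread.

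The YEJH fat-pad lines had a Klk8 normalised read count of 8594 in FP1, 7903 in FP2, 7943 in FP3, 8207 in FP4 and 6975 in FP5, and the YEJH lung lines 8879.5 in M1, 7288 in M2, 7699 in M3, 7720.2 in M4 and 6321 in M5. The 2 sites overlapped in these lines. The mean Klk8 level was 7753 ± 754 (SD, n = 10) in YEJH-derived and 1136 ± 447 (SD, n = 3) in YEJG-derived lines, a ratio of 6.82, and the nearest lines of the 2 groups were 3.83-fold apart.

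Of the 3 genes Klk10 differed least between the derived lines. It is named kallikrein-related peptidase 10, and its human counterpart was first described as a gene down-regulated in breast tumour cells. Parental YEJG gave a normalised read count of 8617 ± 906 and parental YEJH one of 8331 ± 1535 (SD of 3 technical repeats). The YEJG-derived lines gave 2887.5 ± 143 in YEJG-FP, 2424 ± 189 in YEJG-M1 and 1641 ± 64.8 in YEJG-M2. The YEJH-derived lines averaged 5311 ± 597 (SD, n = 10), a 2.29-fold higher mean than the 2318 ± 630 (SD, n = 3) of the YEJG-derived lines, and the nearest lines of the 2 groups were 1.48-fold apart.

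**Figure D1:**
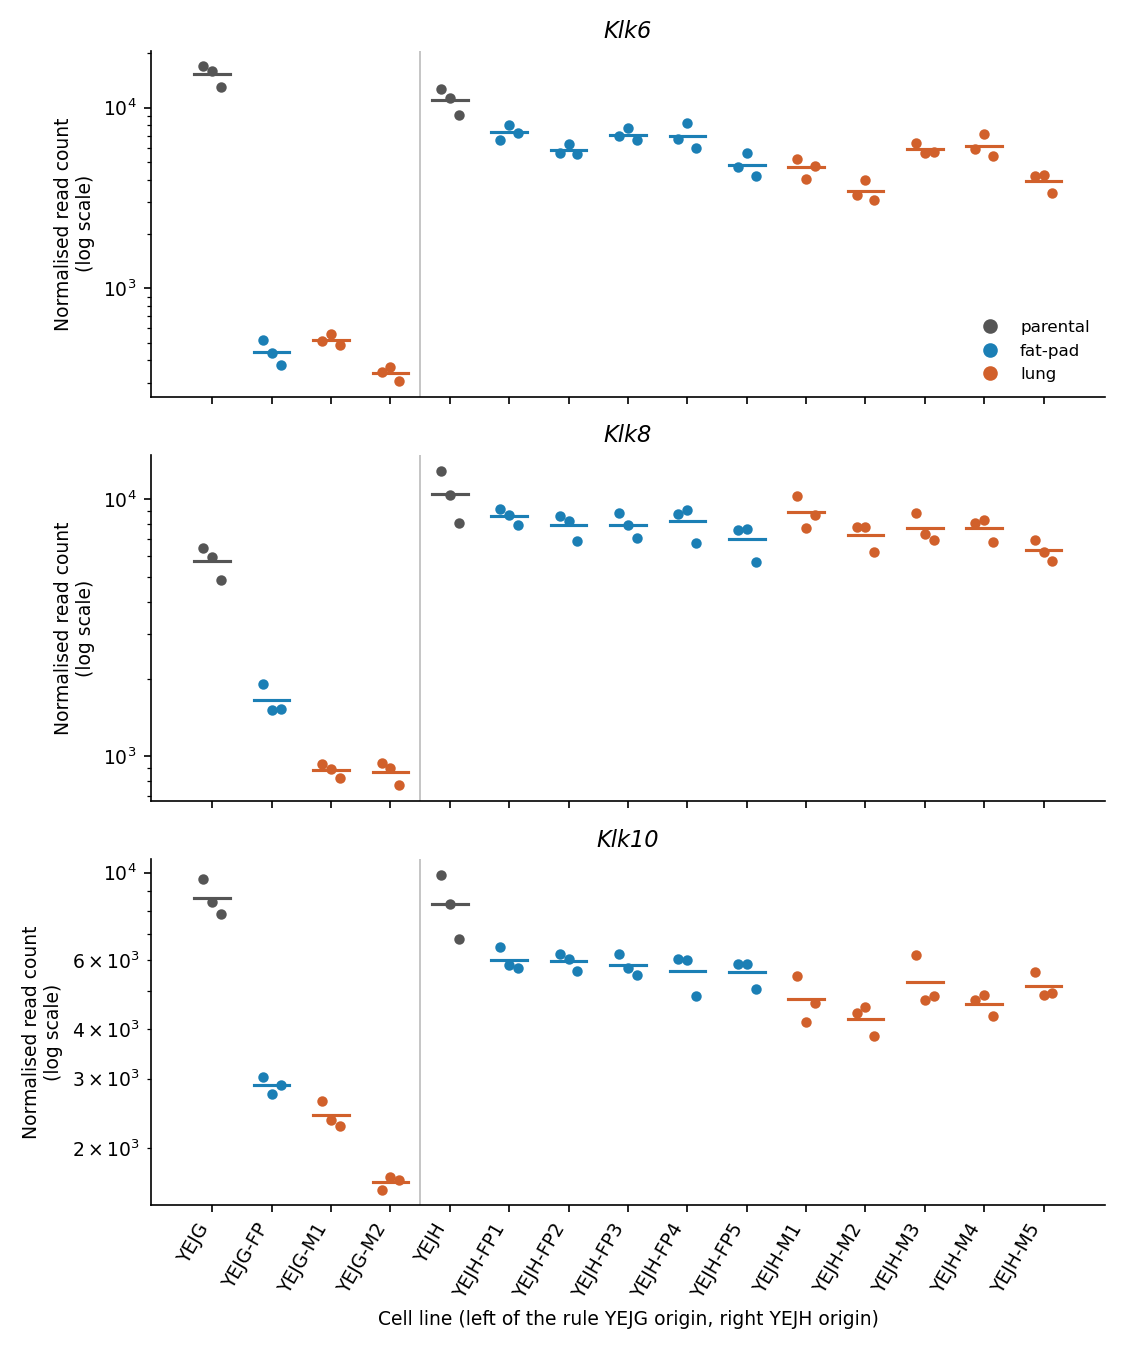
Normalised read counts of Klk6, Klk8 and Klk10 on a log scale (y axis) in the 15 cell lines (x axis, coloured by site); points are the 3 technical repeats and bars their mean. The 3 YEJG-derived lines, left of the vertical rule after the parental line YEJG, are the lowest 3 lines in each panel, at 339.8 to 517 for Klk6, while the parental line YEJG reaches 15311. Klk6 and Klk8 were chosen by this difference.

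The order of the lines was set by few gaps. Of the 14 pairs of neighbours in the ranking by mean level, the gap exceeded the summed technical SDs in 3 for Klk6, 2 for Klk8 and 4 for Klk10. For Klk6 these gaps separated parental YEJG from parental YEJH, parental YEJH from YEJH-FP1, and YEJH-M2 from YEJG-M1, whereas the other lines did not differ from their neighbours in the ranking beyond this technical spread. Lines further apart in it did, such as YEJH-FP1 (7304 ± 729) and YEJH-M2 (3447 ± 460, SD of 3 technical repeats). For Klk8 the gaps lay between parental YEJG and YEJG-FP and between YEJG-FP and YEJG-M1. For Klk10 they lay between parental YEJH and YEJH-FP1, between YEJH-M2 and YEJG-FP, and between the YEJG-derived lines themselves.

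Between the technical repeats of a line, the counts of these genes rose less than in proportion to depth. The median coefficient of variation within lines was 12.55% for Klk6, 12.5% for Klk8 and 7.79% for Klk10. In 12 of 15 lines the deepest library had the lowest normalised count of Klk8, and this held in 11 lines for Klk10 and 9 for Klk6. Within lines, the slope of log2 raw count on log2 reads counted on genes was 0.32 for Klk8, 0.52 for Klk10 and 0.63 for Klk6, against a median of 0.996 over 5535 genes with a mean of at least 500 reads. Mean depth was alike in the compared groups, 14268400 reads in YEJH fat-pad and 14392200 in YEJH lung libraries, 13911900 in YEJG-derived and 14330300 in YEJH-derived libraries.

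Per kilobase of exon, a scale that allows for the length of a gene, the balance of the 3 genes differed between YEJG-derived and YEJH-derived lines. These shares restate the levels of Klk6 and Klk8 by which the genes were chosen. Of the exon bases of Klk8, 457 are shared with the antisense gene. Klk6 made up 61.1% of their summed level in parental YEJG and 43.3% in parental YEJH. In the YEJG-derived lines its share was 12.9% in YEJG-FP, 20.7% in YEJG-M1 and 17.3% in YEJG-M2, and in the YEJH-derived lines between 26.8% (M2) and 39.6% (FP3). Klk10 made up 36.8% to 42.7% in the YEJG-derived lines against 12.7% to 17.8% in the YEJH-derived lines. Klk8 was the largest share in the YEJH-derived lines (46.0% to 58.6%) and also in YEJG-FP (49.9%) and YEJG-M2 (45.9%). In YEJG-M1 it made up 36.6%. In the parental lines Klk10 made up 15.16% (YEJG) and 14.35% (YEJH).

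**Figure D2:**
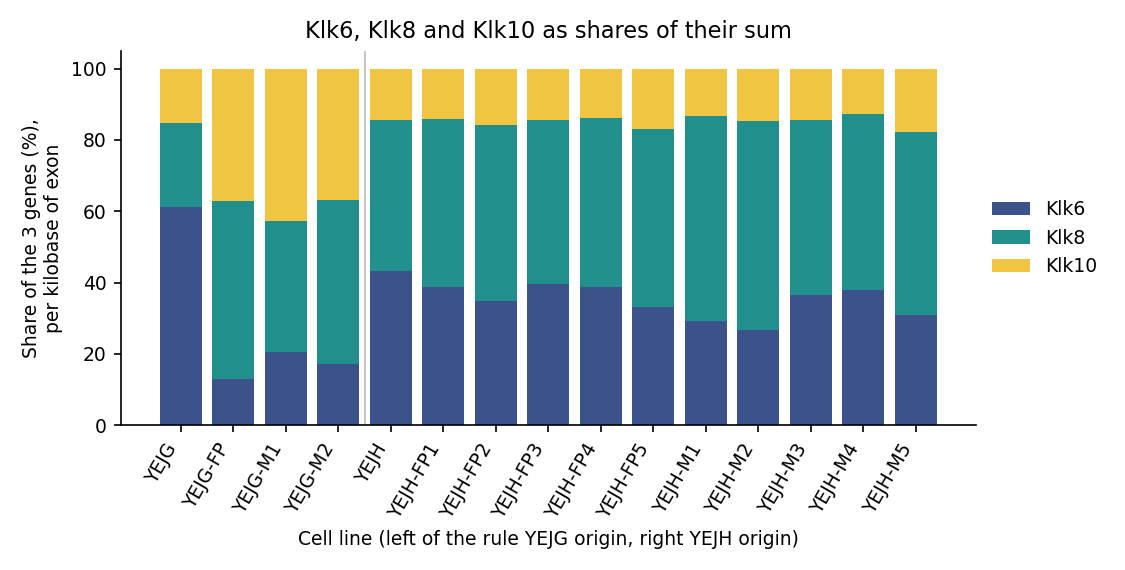
Levels per kilobase of exon of Klk6, Klk8 and Klk10 as shares of their sum in percent (y axis, stacked bars) in the 15 cell lines (x axis). Klk6 takes 61.1% in parental YEJG and 12.9% to 20.7% in the 3 YEJG-derived lines.

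The remaining members were scarce or unseen. Klk7, the chymotrypsin-like kallikrein that sheds skin cells by cutting corneodesmosin, had 752 reads over all libraries. It had between 16 and 28 reads per library in parental YEJG, 2 to 9 in the YEJG-derived lines and 10 to 38 in the YEJH-derived lines. Its normalised read count averaged 18.2 ± 4.08 (SD, n = 10) in YEJH-derived lines and 4.06 ± 0.969 (SD, n = 3) in YEJG-derived lines. Klk9 had 260 reads in all, between 2 and 17 per library, and 1010 of its 1476 exon bases are shared with the antisense gene, so that its value is uncertain. Its normalised read count averaged 6.14 ± 1.18 (SD, n = 10) and 2.76 ± 0.393 (SD, n = 3) in the same groups.

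Klk14, an activator of other kallikreins in skin, had 13 reads in 9 libraries, at most 2 in any of them. Of these, 12 were in YEJH-derived lines, 9 of them in fat-pad lines, and 1 was in YEJG-FP. Klk11 and Klk13 had 0 reads in every library. A count of 0 allows up to 3 reads in a library, or between 0.177 and 0.309 CPM (counts per fixed library total, as edgeR scales them) at these depths, a limit which covers counting error only. Of the 18 other kallikrein genes of the table, 13 had no read and the other 5, Klk1b3, Klk1b24, Klk4, Klk5 and Klk12, had between 1 and 11 reads over the 45 libraries, so that none could be tested. The genes without a read were Klk1, Klk1b1, Klk1b4, Klk1b5, Klk1b8, Klk1b9, Klk1b11, Klk1b16, Klk1b21, Klk1b22, Klk1b26, Klk1b27 and Klk15. Klk5, which activates Klk7 and Klk14 in skin, was among the scarce genes with 11 reads.

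**Figure D3:**
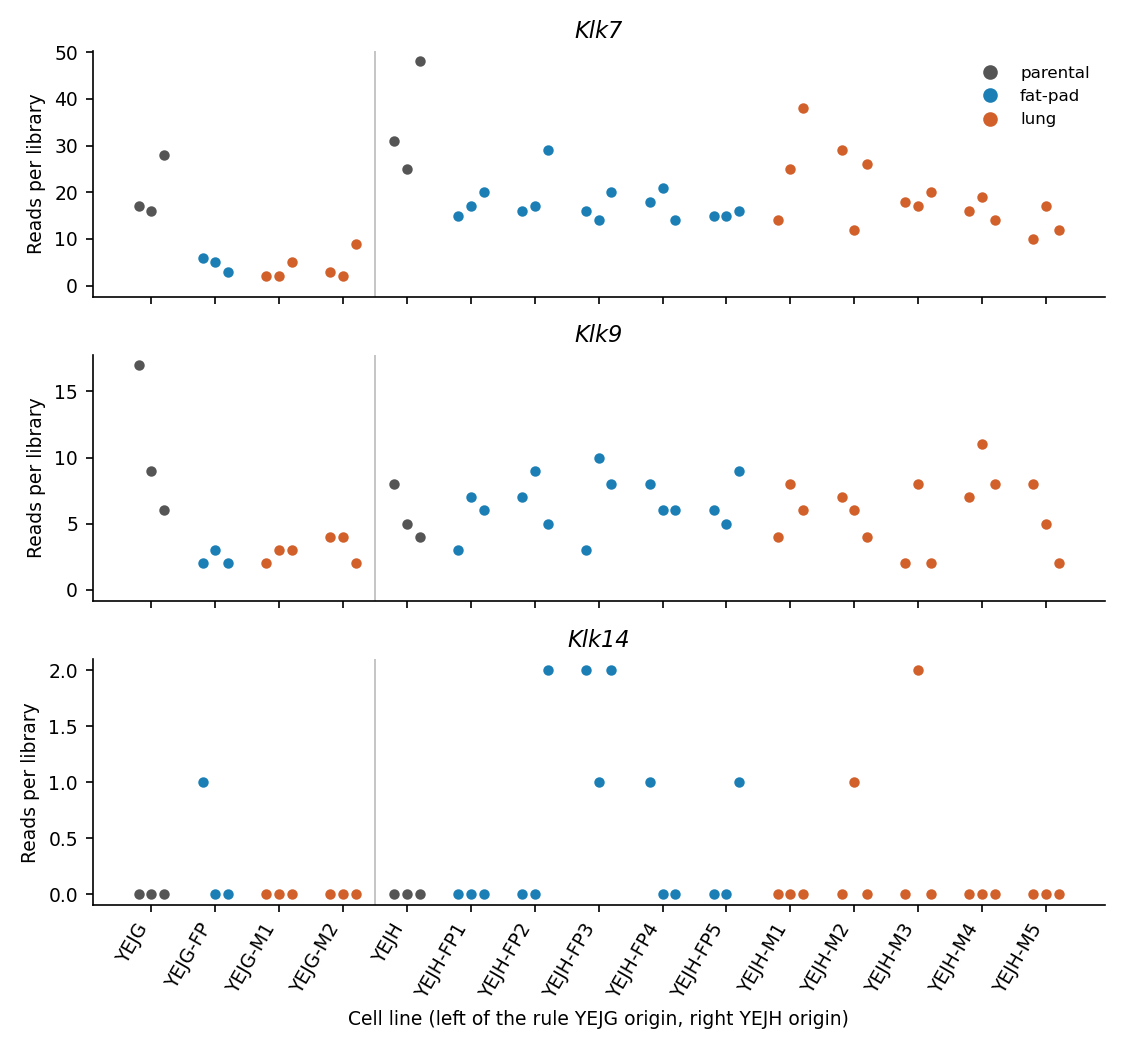
Raw reads per library of Klk7, Klk9 and Klk14 (y axes) in the 15 cell lines (x axis, coloured by site), 3 points per line for the technical repeats. No library had more than 2 reads of Klk14, and Klk7 stays between 2 and 9 reads in the 3 YEJG-derived lines.

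Lung lines were compared with fat-pad lines to ask whether the members differed with the site from which the cells were recovered. Over the 13 derived lines, edgeR's quasi-likelihood test called 0 of 15056 genes (0%) at an adjusted p of 0.05, 784 genes had an unadjusted p under 0.05, and DESeq2 called 22. With origin as a covariate 3 of 15815 genes were called (0.0190%), none of them a member. The log2 fold change, lung over fat-pad, was -0.61 for Klk6 (SE 0.67, adjusted p 0.916), -0.29 for Klk8 (SE 0.54, adjusted p 0.947) and -0.41 for Klk10 (SE 0.26, adjusted p 0.909). Klk7 gave -0.05 and Klk9 -0.22. The spread between lines of unlike origin was large in this comparison, and the fat-pad lines included 1 line of YEJG origin of 6 and the lung lines 2 of 7.

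Within the 10 YEJH-derived lines, Klk10 was lower in each of the 5 lung lines than in any of the 5 fat-pad lines, by a small amount. Its normalised read count was 6013 in FP1, 5955 in FP2, 5816 in FP3, 5638 in FP4 and 5589 in FP5, and 4774 in M1, 4260.2 in M2, 5265 in M3, 4652 in M4 and 5148 in M5. Means were 5802 ± 187 (SD, n = 5) in fat-pad and 4819.7 ± 403 (SD, n = 5) in lung lines. All lung lines lay below all fat-pad lines for 222 of 17110 genes (1.3%). The log2 fold change of Klk10 was -0.28 (SE 0.05, adjusted p 0.132, unadjusted p 0.000328, edgeR), which did not pass the threshold, and 7 of 14990 genes passed it (0.0467%), 1 of them higher in lung (0.00667%) and 6 lower (0.0400%). Klk10 passed with DESeq2 (adjusted p 0.00131), with the libraries kept apart in limma (adjusted p 0.00594) and without YEJH-M5 (adjusted p 0.0424).

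Klk6 in the same lines was -0.42 on the log2 scale (SE 0.17, adjusted p 0.575, edgeR), with means of 6402 ± 1054 in fat-pad and 4825 ± 1186 in lung lines (SD, n = 5 each), and the 2 groups overlapped. It passed in limma with the libraries kept apart, at an adjusted p of 0.0476. Klk8 had a log2 fold change of -0.07 (SE 0.08, adjusted p 0.867), with means of 7925 ± 598 and 7582 ± 921 (SD, n = 5 each). Klk7 gave 0.14 (SE 0.21, adjusted p 0.905) and Klk9 -0.16 (SE 0.20, adjusted p 0.888).

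**Figure D4:**
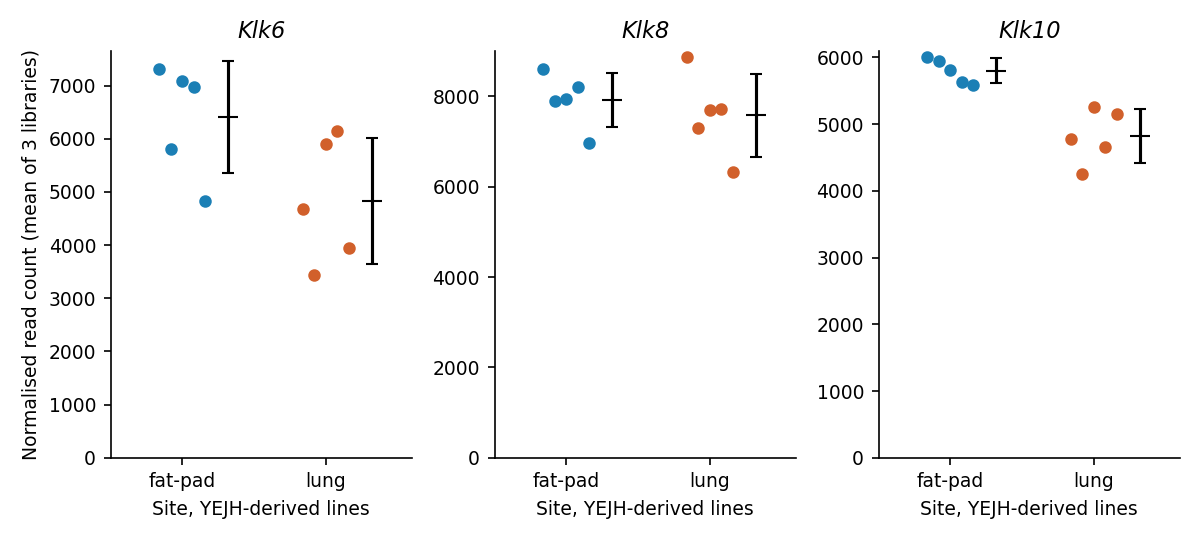
Normalised read counts of Klk6, Klk8 and Klk10 (y axes starting at 0) in the 5 fat-pad and 5 lung lines of YEJH origin; each point is the mean of 3 libraries of 1 line, and the bars show the mean and SD over lines. The fat-pad lines lie between 5589 and 6013 for Klk10 and the lung lines between 4260.2 and 5265, without overlap, whereas the groups overlap for Klk6 and Klk8.

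The 2 lung lines and the 1 fat-pad line of YEJG origin are given beside these values without a test, because the YEJG-derived lines were used to choose the genes and the fat-pad side is a single line, YEJG-FP. Klk8 was 1.88-fold higher in YEJG-FP than in the mean of the YEJG lung lines, against 1.05-fold in the fat-pad over the lung lines of YEJH origin. The same ratio in the YEJG-derived lines was 1.42 for Klk10. For Klk6 it was 1.04, against 1.33 in the lines of YEJH origin, and YEJG-FP lay between both YEJG lung lines.

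The lists of genes that act with kallikreins were compared between YEJG-derived and YEJH-derived lines, with 6453 of 15815 genes called (40.8%), 3032 of them higher (19.2%) and 3421 lower (21.6%) in YEJG-derived lines, and a median log2 fold change of 0.0032 over all genes tested. Of these lists together, 51 genes were tested and 30 were called, 7 higher and 23 lower. Because each origin is 1 parental line, these p-values measure the spread between lines that share a parent. The parental lines were left out of this comparison, so that it describes the derived lines only. Parental YEJG had normalised read counts of 4736 for St14, 1223 for Spint1 and 1865 for F2rl1, against YEJH-derived means of 4268, 1156 and 1302. It had 256 for Plat and 242 for Tmprss11e against 497 and 724, and 18.9 for Ephb2 against 12.3.

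The inhibitors and activators called between origins were lower in YEJG-derived lines, apart from Prss23. Among 16 inhibitors, 6 were tested and 3 fell in YEJG-derived lines, with a median of -0.89 over the 6. Spint1 and Spint2, the Kunitz inhibitors of matriptase and related proteases, had log2 fold changes of -1.47 (SE 0.25, adjusted p 0.00057) and -1.26 (SE 0.23, adjusted p 0.00102). Wfdc2, a secreted protein of the whey acidic protein family, was at -1.20 (SE 0.17, adjusted p 0.000137). Slpi, the secretory leukocyte protease inhibitor, was not called between origins (-0.16, adjusted p 0.32), but was lower in lung than in fat-pad YEJH-derived lines, at -0.57 on the log2 scale (SE 0.08, adjusted p 0.046), and no other listed gene passed a site test. Every lung line (at most 1931) lay below every fat-pad line (at least 2162) in its normalised read count. The call was near the threshold. It was lost in 11 of 23 alternatives, among them the line number as a replicate block (adjusted p 0.106), library set B only (0.143), each technical repeat left out (0.0694 to 0.123) and the omission of FP1, FP2, FP4, FP5, M2 or M3 (0.0908 to 0.196).

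Of 17 other serine proteases and receptors that act in activation cascades, 12 were tested and 11 were called, 10 lower and 1 higher, with a median of -1.38. St14, which encodes matriptase, an epithelial membrane protease, had a normalised read count of 4268 ± 260 (SD, n = 10) in YEJH-derived and 1698 ± 976 (SD, n = 3) in YEJG-derived lines (log2 fold change -1.36, SE 0.21, adjusted p 0.000319). Among genes with a mean of at least 50 normalised counts, the largest changes in this list were those of Tmprss4 (-1.78, SE 0.31, adjusted p 0.000635), Tmprss11e (-1.74, SE 0.44, adjusted p 0.00657), Plat (-1.50, SE 0.27, adjusted p 0.000782), Plau (-1.40, SE 0.14, adjusted p 2.1e-05) and St14. Tmprss4 and Tmprss11e encode membrane serine proteases, and Plat and Plau the tissue-type and urokinase-type plasminogen activators. Hpn (-4.80, adjusted p 5.24e-05) and Tmprss2 (-4.30, adjusted p 0.00206), membrane serine proteases below that mean and named here after their values were seen, had larger log2 fold changes. Prss23, a secreted serine protease, was the 1 that was higher, at 1.04 (SE 0.17, adjusted p 0.000468). For Tmprss11e the groups overlapped, with a normalised read count of 467 in YEJG-M2 against 268 to 1562 in YEJH-derived lines. Parental YEJH lay below all YEJH-derived lines for Tmprss11e (247) and for Tmprss4 (48.1 against 78.7 to 234).

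Receptors and substrates moved in both directions. Of 21 genes, 14 were tested and 9 called, 3 higher and 6 lower, with a median of 0.23. F2rl1 encodes protease-activated receptor 2, which trypsin-like proteases cut at its N terminus. It was lower in YEJG-derived lines, at -1.10 (SE 0.28, adjusted p 0.00718), with normalised read counts of 1121 in YEJG-FP, 311 in YEJG-M1 and 435 in YEJG-M2 against a mean of 1302 ± 271 (SD, n = 10) in YEJH-derived lines. F2r, which encodes protease-activated receptor 1, was not called (0.27, SE 0.12, adjusted p 0.0908), and F2rl2 and F2rl3 were too low to test. The largest changes among genes with a mean of at least 50 normalised counts were Ephb2 (5.50, SE 0.41, adjusted p 2.8e-06), L1cam (-1.56, SE 0.12, adjusted p 3.23e-06), Cdh1 (-1.54, SE 0.27, adjusted p 0.000706), F2rl1 and Mbp (-1.08, SE 0.20, adjusted p 0.000979). Ephb2 reached this mean through the YEJG-derived lines, with normalised read counts of 128 in YEJG-FP, 1106 in YEJG-M1 and 1167 in YEJG-M2 against 5.02 to 26.7 in YEJH-derived lines. Ephb2 is an ephrin receptor that Klk8 is known to cut, L1cam a neural cell adhesion molecule, Cdh1 the epithelial adhesion protein E-cadherin, and Mbp myelin basic protein.

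**Figure D5:**
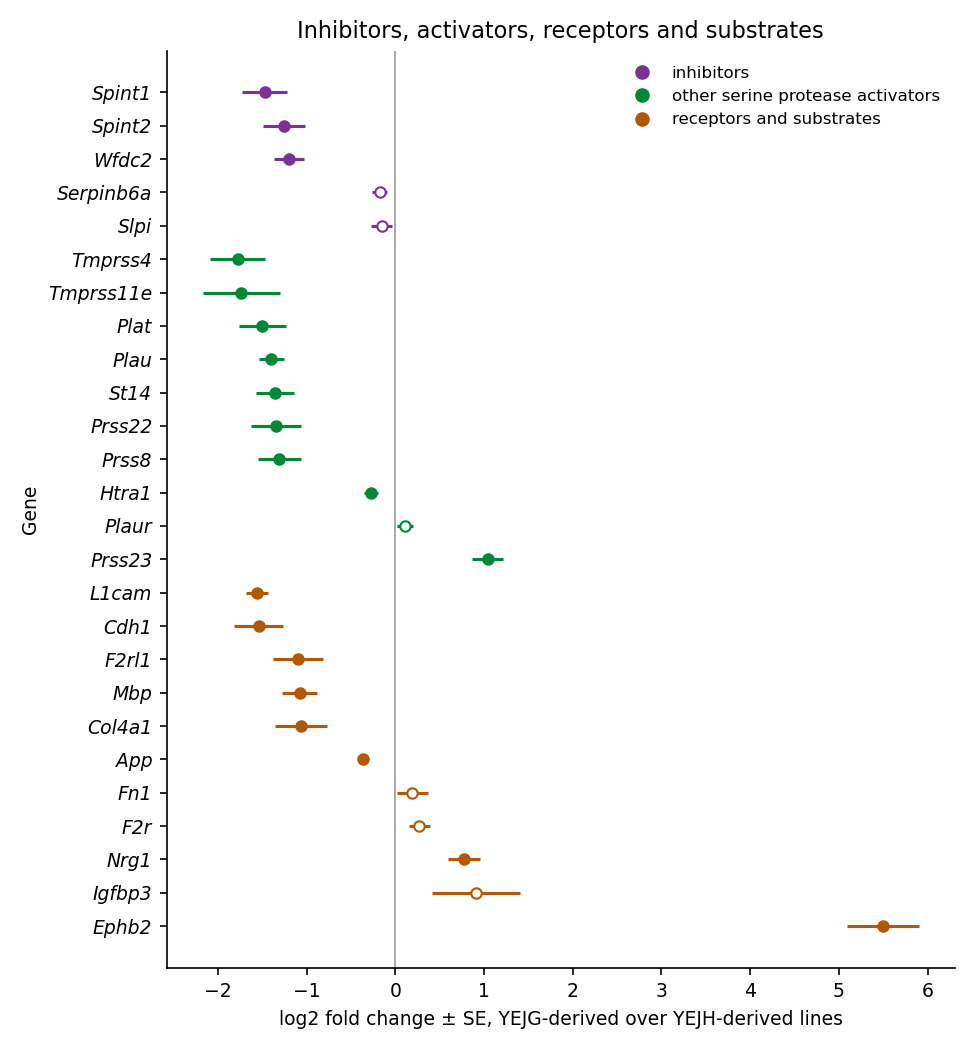
Log2 fold change of 26 inhibitor, activator, receptor and substrate genes with a mean of at least 50 normalised read counts, YEJG-derived over YEJH-derived lines (x axis, bars are SE, y axis genes); filled points have an adjusted p under 0.05. Spint1, St14 and F2rl1 lie at -1.47, -1.36 and -1.10, whereas Ephb2 lies at 5.50.

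The cornified epithelium list, genes of the skin barrier in which kallikreins act, did not move one way. Of 29 genes, 19 were tested and 7 called, 3 higher and 4 lower, 36.8% of those tested, with a median of -0.03. Among those with a mean of at least 50 normalised counts, Dsg3 (-1.71, adjusted p 0.000118), Ovol1 (-0.92, adjusted p 0.00498) and Pkp1 (-0.63, adjusted p 0.00604) were lower, and Krt16 (0.56, adjusted p 0.0153) and Klf4 (0.36, adjusted p 0.0402) were higher. Dsg3 and Pkp1 encode parts of desmosomes, Krt16 a keratin of stressed epidermis, and Ovol1 and Klf4 transcription factors of differentiating epithelium.

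Markers of epithelium and of fibroblasts also differed between YEJG-derived and YEJH-derived lines. Whether they have a part in the differences of the members was not tested. All 8 mammary epithelial markers (Epcam, Krt8, Krt18, Krt19, Cdh1, Cldn3, Cldn4 and Cldn7) were detected, and all 8 were lower in YEJG-derived lines, with a median of -1.53. Their summed normalised read count was 82264 to 109363 in YEJH-derived lines, 60884 in YEJG-FP, 44947 in YEJG-M1 and 40768 in YEJG-M2, and 92864 in parental YEJG. All 5 testable fibroblast markers of 8 were higher (median 2.61). Col3a1 and Pdgfrb passed the filter on low counts only in the comparison of origins, not in those of sites. Their YEJH-derived means were 0.66 and 2.81, against 39.9 and 467 in YEJG-derived lines, so that the filter favoured this direction. In YEJG-FP, Pdgfra (43.3) and Col1a1 (5.59) did not exceed the highest YEJH-derived line (61.5 and 5.71), whereas Col1a2, Col3a1 and Pdgfrb did. The summed level of all 8 was 168.6 in YEJG-FP, 1091 in YEJG-M1 and 1248 in YEJG-M2 against 37.2 to 88.2 in YEJH-derived lines. Of the fibroblast markers, 2 had no read in any library. The parental YEJG line had 27.9 for the same sum, with the highest Klk6 level of all lines, and parental YEJH had 44.0. In these bulk cultures fewer cells of a type and less RNA per cell cannot be told apart.

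Of the leukocyte markers, summed levels were 39.4 to 134 in YEJG-derived and 58.1 to 129 in YEJH-derived lines, and 2 of 8 were at 0 in every library. Of the 3 that could be tested, Csf1r, the receptor of macrophage colony-stimulating factor, was lower in YEJG-derived lines (-1.20, adjusted p 0.0153). Of the lung epithelium markers 4 of 8 were at 0 in every library, and Foxj1, the 1 that could be tested, was lower in YEJG-derived lines (-1.69, adjusted p 0.0196). Of the endothelial markers 1 of 6 was at 0, and their summed level reached at most 12.1 in all lines. The 1 that could be tested, Cdh5, which encodes the endothelial cadherin, was lower in YEJG-derived lines (-3.88, adjusted p 0.000234), at a normalised read count of at most 0.363 against 2.03 to 6.78 in YEJH-derived lines. Between lung and fat-pad lines of YEJH origin none of the marker genes passed the test. The summed leukocyte markers did not overlap, at 58.1 to 90.2 in fat-pad and 96.4 to 128.9 in lung lines. Csf1r was 19.5 to 25.9 in fat-pad and 30.8 to 68.4 in lung lines (log2 fold change 1.10, SE 0.21, adjusted p 0.132, edgeR). Cd68 and S100a8, the others that could be tested, overlapped between the sites. All lung lines lay above all fat-pad lines for 104 of 17110 genes (0.608%).

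The pattern of Klk6 over the 15 lines was most like that of Tns4 (Pearson's r of log2 CPM 0.99), Tedc1 (0.97), Gm36582 (0.96), Klk10 (0.96) and Pbp2 (0.96) among 17110 genes. For Klk8 the 4 most alike were 2610307P16Rik (0.99), Dlg1 (0.99), Tmc7 (0.99) and Rell1 (0.99). These are descriptions over 15 lines that share 2 parental lines, and no p is given. Klk10 ranked 4th among genes most like Klk6, with Klk8 ranking 62nd at 0.93 and the epithelial marker Epcam 206th at 0.89. Among genes most like Klk8 the members stood lower, Klk7 235th, Klk6 356th, Klk10 807th and Klk9 2094th. There the epithelial markers Epcam (80th, 0.96) and Krt19 (89th, 0.96) ranked above all of them. Within the 10 YEJH-derived lines, r was 0.61 between Klk6 and Klk8, 0.70 between Klk6 and Klk10, and 0.20 between Klk8 and Klk10.

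The neighbourhood of the cluster was mostly silent. Within 250000 bases on either side of the outermost members 70 genes are annotated and 59 were in the table, of which 11 were tested, the 5 members and 6 others. The antisense gene 2310002F09Rik was lower in YEJG-derived lines (log2 fold change -1.56, SE 0.20, adjusted p 8.68e-05), with a normalised read count of 13.9 ± 5.75 (SD, n = 3) against 40.5 ± 4.87 (SD, n = 10), and Vsig10l was lower too (-1.35, SE 0.39, adjusted p 0.0149), at 2.96 ± 2.17 against 7.43 ± 1.55. The exons of 2310002F09Rik share bases with those of Klk8, Klk9, Klk11 and Klk14. Without strand its reads there cannot be told apart from theirs, so that its value is uncertain. The other 4, Etfb, Zfp175, Zfp719 and Ctu1, were expressed and were not called, with log2 fold changes between -0.06 and 0.10.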

How the data were processed

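RNA of 15 PyMT+ mouse cell lines was sequenced by the authors as technical triplicates, with a TruSeq RNA library kit on a NextSeq500. The table deposited by the authors holds raw counts, whole numbers of reads for each gene and library, without normalisation. The submitters' processing notes name FastQC, HISAT2, SAMtools 1.2 and HTSeq, and the build label GRCh38, whereas the gene identifiers are those of mouse. Whether counting used strand, and the annotation release, are not given in the sources used here. No column was left unmatched (0), and 50764 identifiers (92.6%) matched GRCm39, used for names and positions. Reads outside genes or not assigned to one made up 31.6% to 43.3% of each library's total and were left out.

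Counts were summed over the 3 libraries of a line, the unit of replication, and tested with edgeR 4.0.16 (R 4.3.3): TMM factors, filterByExpr, quasi-likelihood test, Benjamini-Hochberg adjustment, threshold 0.05. Lung was compared with fat-pad lines over 13 derived lines and over the 10 of YEJH origin, YEJG-derived with YEJH-derived lines for genes outside the members with site as a covariate, and library set A with B within lines. Normalised read counts are counts divided by the effective library size and scaled to its mean. Correlations are over line means of log2 CPM. Alternatives used DESeq2 1.42.0 and limma 3.58.1, other filters, size factors and covariates, and omission of lines and libraries. Figures were drawn with matplotlib 3.10.9 in Python 3.11.15.

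The members and lists were chosen with earlier results of these data known. Genes named beside the members were, per list, up to 5 called between origins with the largest fold change and a mean of at least 50 normalised counts, any called between sites, the protease-activated receptors, other kallikreins, and the 5 genes most like Klk6 and Klk8, of which 1 is not reported here. Motifs were searched in RefSeq promoter windows; protein sequences were not analysed here. Tested on simulated data for the 10 YEJH-derived lines (14990 genes), the test recovered 70.1% of 67 genes changed 1.5-fold, 77.6% of 67 changed 2-fold and 98.5% of 66 changed 4-fold, with 10 false calls. For the 13 derived lines (15056 genes) it recovered 47.8%, 77.6% and 97% of genes changed 1.5-, 2- and 4-fold, with 7 false calls, and for YEJG-derived against YEJH-derived lines (15815 genes) 65.7%, 73.1% and 90.9%, with 11. All these genes were changed together, by at least 1.5-fold. Between fat-pad and lung YEJH-derived lines Klk10 differed 1.21-fold and Klk6 1.34-fold, so that these rates do not show whether such differences would be found.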

Additional observations from a re-analysis of the deposited data

Results flagged for a closer look

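YEJG-FP stood apart from the 5 YEJH lines in the group of all 6 fat-pad lines for each of the 5 detected members, its gap to the nearest line taking more of the group's range than the 95% limit for 6 values allows. It was the lowest line for Klk6 (normalised read count 444, the next line 4835), Klk7 (4.82, next 14.8), Klk8 (1652, next 6975), Klk9 (2.42, next 5.42) and Klk10 (2887.5, next 5589). YEJG-FP is also the only fat-pad line of YEJG origin, so that this repeats the difference of origin by which the genes were chosen. In all, 20 groups were examined and chance flags about 1 in 20. The flags all fall on this 1 line in genes chosen by that difference, so that their number cannot be set against the chance share. No lung group and no group of YEJH lines had such a line. In the group of all lung lines the 2 YEJG lines are the lowest, and the gap is measured between them. It took 0.030 of the range for Klk6, against a limit of 0.568, so that the measure does not compare these lines with the YEJH lines.

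The lung minus fat-pad log2 difference of Klk8 was -0.84 in YEJG-derived relative to YEJH-derived lines, as edgeR fitted it with a site-by-origin term. This is given as a value without a p, because the YEJG-derived lines were used to choose Klk8, and because YEJG has 1 fat-pad line, whose spread is assumed to be like that of the other lines.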

How the results depend on the processing

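The log2 difference of the members between YEJG-derived and YEJH-derived lines moved by less than the spread between YEJG-derived lines under all 21 alternatives for each gene. It ranged from -3.81 to -3.51 for Klk6, -3.14 to -2.67 for Klk8 and -1.40 to -0.997 for Klk10. Klk6 and Klk8 were chosen by this difference, and every alternative drew on the same lines. These ranges therefore describe the processing only and lend the difference no support. The calls between origins over all genes ranged from 4901 to 7208 and those of listed genes from 26 to 34.

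Between lung and fat-pad lines over 13 lines, 0 genes were called, against 22 with DESeq2's Wald test, 1 in library set A only, 77 in limma with the libraries kept apart, 70 with the technical repeat number as a replicate block, 3 with origin as a covariate and 0 to 1 when a line or repeat was left out. Over the 10 YEJH-derived lines, 7 genes were called, against 153 with DESeq2's Wald test, 319 in limma with the libraries kept apart, 310 with the technical repeat block, and 2 to 110 when a line or repeat was left out, the highest without YEJH-M5. With the line number as a replicate block 0 genes were called (1130 at an unadjusted p under 0.05); lines sharing a number correlated at -0.118 to 0.0234 over 5 pairs and 0 lines correlated best with their own number, and the labels do not say whether lines of one number came from one mouse, so that they were not treated as pairs. A further 2 fits were chosen after seeing the data, limma with library set and origin as covariates (613 calls over 13 lines) and with library set (318 calls over the YEJH-derived lines). In the first, Klk6 and Klk10 passed over 13 lines (adjusted p 0.0449 and 0.00311), and in the second over the YEJH-derived lines (0.0427 and 0.00603). The cause of these differences was not tested.

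The site-by-origin difference, given without a test, was -0.23 for Klk10 and 0.0083 without YEJG-M2 or -0.53 without YEJG-M1, where 1 fat-pad line stands against 1 lung line. Every alternative for it, chosen after seeing the data, holds the same single line YEJG-FP.

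Klk7, not called in any fit, changed sign over 13 lines in library set B only (0.026), with origin as a covariate (0.064), in the fit with library set and origin (0.021) and when a line or repeat was left out (-0.29 to 0.12). Over the YEJH-derived lines it was -0.016 in library set A only and lay between -0.040 and 0.27 when a line or repeat was left out. Klk9 lay between -0.32 and 0.017 over the YEJH-derived lines when a line or repeat was left out. Depth limits Klk7, Klk9 and Klk14, which had at most 48, 17 and 2 reads per library.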
